A study of Arabidopsis thaliana with 12 samples.

Results

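Older rosettes of Arabidopsis thaliana that carried an RNA interference construct against SPH1 were compared with Col-0 rosettes of the same age. The comparison used 6 of the 12 Affymetrix ATH1 arrays of the study, 3 of SPH1 RNAi and 3 of Col-0 at growth stage 1.14, chosen by the genotype and stage in their source names. The other 6 arrays hold the same genotypes at stage 1.05. They entered the fit, which pools the spread of all 4 groups, and they served to test whether the difference between the genotypes changed with stage. Growth stages 1.05 and 1.14 belong to a scale whose decimals count rosette leaves.

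Col-0 is the standard laboratory accession of Arabidopsis, and here it is the comparison plant without the construct. Both genotypes grew in a greenhouse on compost with perlite at 20 °C, 80% humidity and a 16 h photoperiod, with the treatment labelled Intersept and a cold stratification in common. RNA was pooled from 40 plants, per the series' design text. Neither the promoter that drives the construct nor the number of transgenic lines is stated in the labels. Nor do they say whether the arrays of a group came from separate sowings, so p-values reflect only how these arrays spread, which may be technical. SPH1 RNAi replicate 3 lacks the RNAi tag of its group in the labels and was placed by its source name and title, and the titles of replicates 2 and 3 mark them as repeats.

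In RNA interference, double-stranded RNA that matches a transcript leads to its breakdown. SPH1 is one of the S-protein homologues, small secreted plant proteins related to the stigma proteins that govern self-incompatibility in poppy. As a rosette ages, more of its leaf tissue has stopped dividing and has become mature photosynthetic tissue, and young tissue is known for high rates of ribosome production. The study set out to find leaf transcripts that change when SPH1 is targeted, and the comparison at stage 1.14 puts that question to the older rosette. Family memberships given below for loci without a symbol are background knowledge of the Arabidopsis annotation, and the gene table used here does not hold them.

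SPH1 has no probe set in the gene list of the array, and whether the construct lowered it could not be checked. Every value is a linear signal that the authors had scaled so that the trimmed mean was 100.01 on each array. The median signal was 44.1 to 48.3 on the SPH1 RNAi arrays and 41.2 to 42.5 on those of Col-0 (46.8 ± 2.34 against 42.0 ± 0.72, SD, n = 3, exact two-sided permutation p = 0.1, the smallest that 3 against 3 allows). Background averaged 99.07 ± 32.8 and 88.35 ± 15.3 (SD, n = 3, exact p = 0.8). The leaf markers LHCB4.1 and LHCB4.2, antenna proteins of photosystem II, and RCA, the activase of Rubisco, had signals between 1754 and 4113 on all 6 arrays. With LHCB4.3, the fourth mesophyll marker, their sum was lower in every SPH1 RNAi array (7954 to 9704) than in every Col-0 array (9747 to 12355). SPH1 RNAi replicate 2, at 9704, nearly reached Col-0 replicate 1, at 9747. Of single probe sets tested, 10.3% had every SPH1 RNAi array below every Col-0 array. All 4 changes were negative, beside 5963 of 13263 over all probe sets tested. LHCB4.2 passed, and none of the 4 did without SPH1 RNAi replicate 1. The part of this in other differences was not tested. SPH1 RNAi replicate 1 stood apart, with correlations across probe sets of 0.894 and 0.904 to replicates 2 and 3, which correlated with each other at 0.969. Col-0 replicate 2 correlated at 0.938 and 0.952 with its own group, against 0.986 between Col-0 replicates 1 and 3. In pooled rosettes, fewer cells of a type and less RNA per cell cannot be told apart.

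Of 13263 probe sets tested, 896 differed between the genotypes at stage 1.14 (6.76%, limma on log2 of the signal plus 16, Benjamini-Hochberg adjusted p under 0.05). In SPH1 RNAi 623 were higher (4.7%) and 273 lower (2.06%), and 257 of the 896 differed at least 2-fold. Without SPH1 RNAi replicate 1 the number was 690 (5.2%), with 454 higher (3.42%) and 236 lower (1.78%). Both settings called 536 probe sets in the same direction (4.04% of those tested), which is 59.8% of the 896 and 77.7% of the 690. The count was 1102 without SPH1 RNAi replicate 2, and it fell to 411 without replicate 3 and to 401, 447 and 376 without Col-0 replicates 1, 2 and 3. Through all 6 of these omissions 239 probe sets passed, 184 higher and 55 lower.

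**Figure D1:**
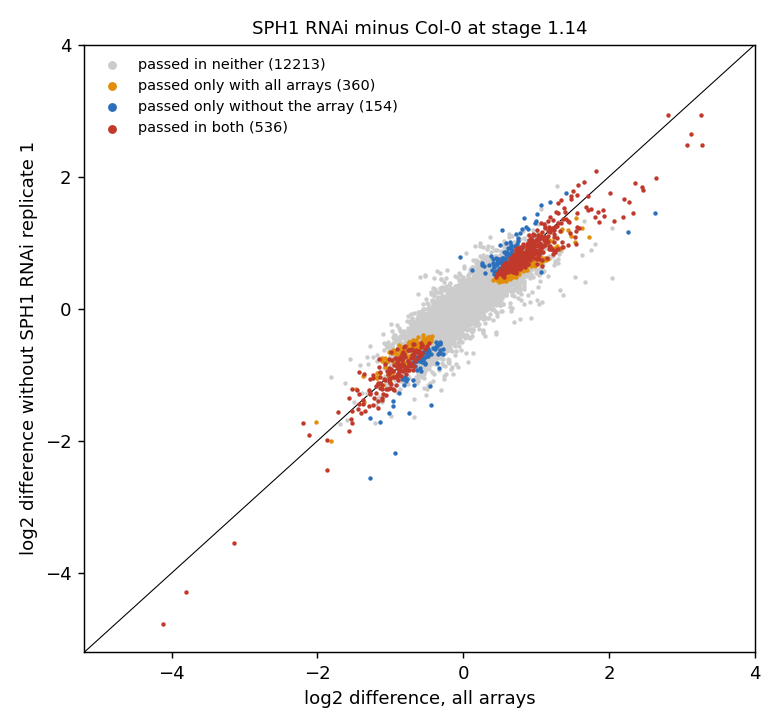
Log2 difference between SPH1 RNAi and Col-0 at stage 1.14 with all arrays (horizontal axis) and without SPH1 RNAi replicate 1 (vertical axis), 1 point per probe set, coloured by the settings in which it passed, with the line of equal values. Among the 536 probe sets that passed in both, AT1G62500 lies below the line, at 3.28 with and 2.48 without the array, as does PDF1.2b, at -4.12 and -4.77.

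The plot of both settings shows where replicate 1 weighs most. Among the 623 probe sets that rose, replicate 1 was the highest SPH1 RNAi array in 60.8%, against 41.7% of all probe sets tested. Among the 273 that fell it was the lowest in 49.5%, against 36.3% of all. Col-0 replicate 2 had a similar place on the other side: it was the lowest Col-0 array in 61.2% of the probe sets that rose, against 40.9% of all. The 3 arrays of one genotype lay wholly above the 3 of the other in 893 of the 896, and in 28.2% of all probe sets tested. Of all tested, 17.9% had every SPH1 RNAi array on top and 10.3% every Col-0 array.

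The 12 genes that led each direction were ranked by the smaller of their 2 changes, with and without replicate 1, and by that rule had groups that did not overlap. AT4G29030 and AT3G57950 led the rises, and the falls were led by the defensins PDF1.2b and PDF1.2 and the lectin-like AT3G16530. The digit after AT in each locus name is its chromosome.

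**Figure D2:**
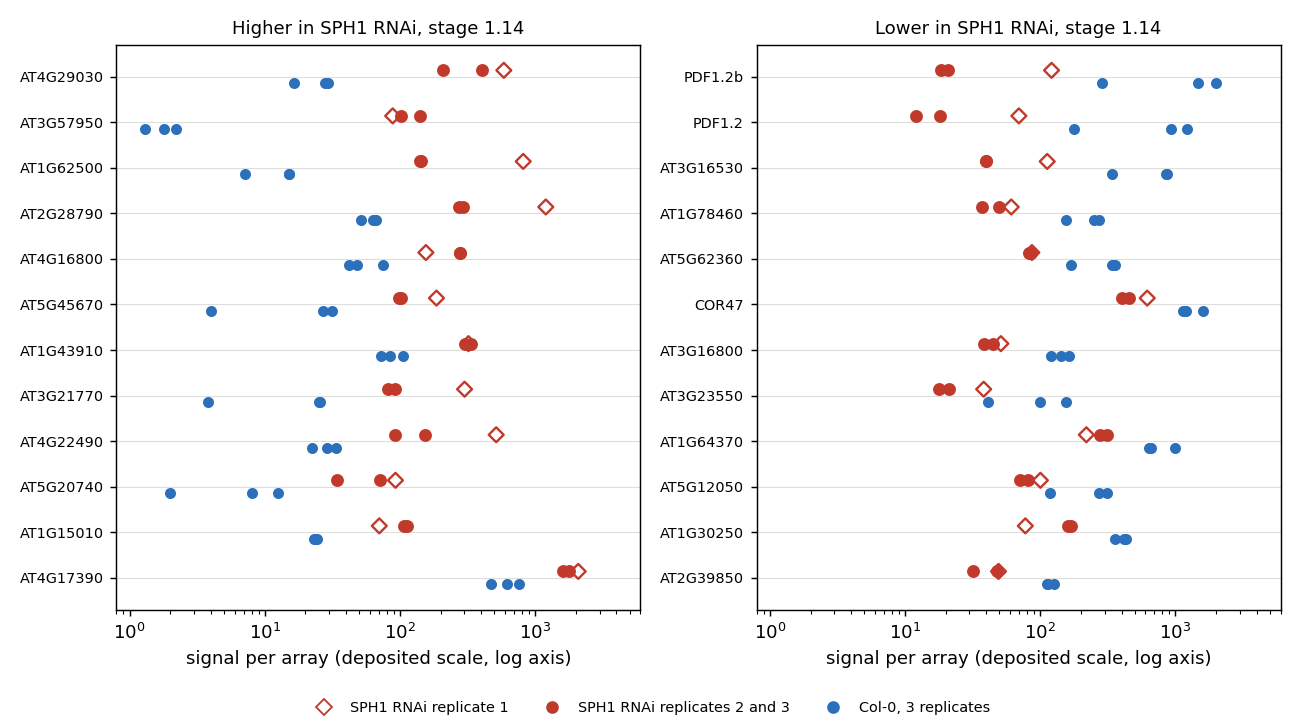
Signal on each array at stage 1.14 (log axis, deposited scale) for the 12 leading genes in each direction, with SPH1 RNAi in red (replicate 1 as an open diamond) and Col-0 in blue. Replicate 1 is the highest SPH1 RNAi array in 8 of the 12 genes on the left, and AT3G57950 is between 1.3 and 2.2 in Col-0.

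AT4G29030 had signals of 587.2, 206.8 and 406.5 on SPH1 RNAi replicates 1, 2 and 3, against 29.5, 16.5 and 27.9 in Col-0. All 3 SPH1 RNAi arrays were far above the Col-0 arrays, and the log2 change was 3.26 ± 0.29 SE (limma adjusted p = 0.000453), or 2.93 without replicate 1. AT3G57950 was near background in Col-0, at 1.3, 2.2 and 1.8, and at 88.4, 140.8 and 102.7 in SPH1 RNAi. Its log2 change of 2.81 ± 0.24 (adjusted p = 0.000453) is on the scale of the signal plus 16 and so understates the ratio of the signals. Here replicate 1 was the lowest of the SPH1 RNAi arrays, and the change without it was 2.94.

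Lipid-transfer proteins carry lipids in the cell wall space, and 2 members of that family were among the 12. AT1G62500 had 817.1 in SPH1 RNAi replicate 1 and 142.2 and 140.1 in replicates 2 and 3, against 15.1, 7.1 and 15.2 in Col-0. Replicate 1 was the highest, and the rise went from 3.28 ± 0.56 (adjusted p = 0.00715) to 2.48 without it (adjusted p = 0.00604). AT4G22490 behaved alike, with 515.7, 91.6 and 153 against 28.9, 22.5 and 33.9 (2.27 ± 0.50, adjusted p = 0.0202, 1.61 without replicate 1). Its call was lost without any one of Col-0 replicates 1, 2 and 3. Another lipid-transfer gene, AT5G01870, was among those whose change shrank most without replicate 1, with 193.4, 46.9 and 57.5 against 6.3, 13.4 and 14.8 (1.86 ± 0.35, and 1.32 without it).

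AT5G45670 of the GDSL-type lipases, hydrolases that are often secreted, rose from 31.3, 4 and 27.2 in Col-0 to 186.4, 101.2 and 98.5 (2.02 ± 0.32, adjusted p = 0.00519, 1.75 without replicate 1). AT4G16800 of the enoyl-CoA hydratase family, enzymes of fatty acid breakdown, rose from 47.9, 42.3 and 74.7 to 155.7, 280.7 and 279.5 (1.83 ± 0.23, adjusted p = 0.00203). It was among the genes whose change grew most without replicate 1, to 2.09.

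Osmotin and thaumatin-like proteins are secreted proteins known from pathogen and stress responses. The osmotin-like AT2G28790 had 1201, 273.4 and 292.8 in SPH1 RNAi against 66.5, 51.6 and 62.8 in Col-0 (2.65 ± 0.43, adjusted p = 0.00545, 1.98 without replicate 1). ATLP-1, a thaumatin-like protein, had 288.7, 98.4 and 122.9 against 40.6, 18.3 and 41.4 (1.81 ± 0.40, adjusted p = 0.02, 1.39 without replicate 1), and did not pass without Col-0 replicate 2. OSM34, osmotin 34, differed by 1.66 and did not pass (adjusted p = 0.069). The peroxidase AT3G21770 had 300.9, 92.4 and 82.2 against 25.3, 25.7 and 3.8 (2.21 ± 0.44, adjusted p = 0.0142, 1.67 without replicate 1), and did not pass without Col-0 replicate 3. In all 3 genes that passed, replicate 1 was the highest array and the other 2 still lay above Col-0.

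AT1G43910, an AAA-type ATPase, was the steadiest of the leading rises, with 321.5, 300.7 and 337.3 against 72.2, 105.6 and 83.9. Its change was 1.71 ± 0.18 (adjusted p = 0.00119) and the same without replicate 1. The other 3 genes of the 12 are given without a role. AT5G20740 stood at 92.7, 34 and 70.7 against 12.5, 2 and 8, AT1G15010 at 70.4, 107.1 and 112 against 24.3, 23.2 and 23.4, and AT4G17390 at 2086, 1768 and 1607 against 619.8, 468.9 and 756.3. Their changes were 1.75 ± 0.26, 1.48 ± 0.26 and 1.56 ± 0.17, and all 3 passed with each stage 1.14 array left out in turn.

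The plant defensins PDF1.2 and PDF1.2b, small antimicrobial proteins known as markers of the jasmonate and ethylene response, fell most. PDF1.2b had 121.4, 18.6 and 20.7 in SPH1 RNAi against 1476, 287.3 and 2002 in Col-0 (-4.12 ± 0.92 SE, limma adjusted p = 0.0217). PDF1.2 had 69.6, 12 and 18.2 against 1214, 176.5 and 925.3 (-3.80 ± 0.83, adjusted p = 0.02). In both genes SPH1 RNAi replicate 1 was the highest array of its group and Col-0 replicate 2 the lowest of its own, so the groups came closest to each other between these arrays. Without SPH1 RNAi replicate 1 the changes were -4.77 and -4.29. Neither gene passed without SPH1 RNAi replicate 3, Col-0 replicate 1 or Col-0 replicate 3. The probe sets of these near-identical genes may share transcripts.

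AT3G16530, a lectin-like gene, had the same order of arrays, with 112.8, 39.7 and 39.8 against 864.4, 340.2 and 856.1. It fell by 3.14 on the log2 scale (± 0.41 SE, adjusted p = 0.00255), and by 3.54 without SPH1 RNAi replicate 1. AT5G62360 of the pectin methylesterase inhibitor family, which restrains the enzymes that modify wall pectin, was at 86.8, 82.9 and 85.5 against 359.5, 169.9 and 341.7 (-1.53 ± 0.25, adjusted p = 0.00577). Its SPH1 RNAi arrays were nearly equal and the Col-0 arrays spread. AT3G16800, a protein phosphatase, fell from 162.2, 120.6 and 142.4 to 51.2, 45 and 38.4 (-1.37 ± 0.14, adjusted p = 0.00111), with a tight spread in both groups.

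The remaining falls among the 12, apart from COR47, are given without a role. AT1G78460 had 61.1, 49.6 and 37.2 against 270.4, 154.7 and 249.1 (-1.86 ± 0.21). AT1G64370 had 219.7, 311.8 and 277.8 against 655.8, 990.5 and 639.4 (-1.43 ± 0.19), and AT1G30250 had 77.7, 160.9 and 168.3 against 420.7, 429.9 and 357.2 (-1.52 ± 0.22). These 3 passed with each stage 1.14 array left out in turn. AT2G39850 (-1.19 ± 0.24) did not pass without SPH1 RNAi replicate 3. AT3G23550 (-1.35 ± 0.34) and AT5G12050 (-1.23 ± 0.29) did not pass without SPH1 RNAi replicates 2 or 3 or Col-0 replicates 1 or 3.

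Outside the 12, AT4G10270, whose family is known from wounding, depended most on replicate 1, with 593.4 there and 75.6 and 91.8 on replicates 2 and 3, against 20.6, 26.7 and 14.5 in Col-0. The change of 2.33 ± 0.58 (adjusted p = 0.0335) was 1.45 without replicate 1, and no call was left without any one Col-0 array. On the other side, AT5G18130 and AT5G60800 had changes that grew without replicate 1, from -1.17 to -1.49 and from 1.35 to 1.64. AT5G18130 lost its call without each of the other 5 arrays of stage 1.14, and AT5G60800 without SPH1 RNAi replicate 3 or any Col-0 array.

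Genes with a symbol in the gene table made up 55 of the 896 calls, 30 higher and 25 lower. Without replicate 1, 19 of the 30 and 17 of the 25 still passed. They were grouped by role.

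Rises were found in genes of rRNA synthesis and ribosome assembly. NRPA1, the largest subunit of RNA polymerase I, which transcribes the ribosomal RNA genes, had 94.5, 94.3 and 95.4 in SPH1 RNAi against 43.7, 43.6 and 40.6 in Col-0 (0.92 ± 0.13, adjusted p = 0.00322). Its partner NRPA2, the second subunit, had 190.2, 176.8 and 203.1 against 116.2, 100.3 and 112.3 (0.71 ± 0.13, adjusted p = 0.0107), and NRPB12, a small polymerase subunit, rose by 0.85 ± 0.15. The spread inside each group was small for these polymerase genes, and replicate 1 did not stand apart: the changes without it were 0.92, 0.71 and 0.86.

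Nucleolar assembly factors followed. YAO, a nucleolar WD-repeat protein, had 93.6, 131 and 126.6 against 58.3, 64.7 and 64.3 (0.75 ± 0.14, adjusted p = 0.0122). PRH75, a nucleolar RNA helicase, had 451.2, 334.9 and 282.5 against 210, 182.8 and 199.3 (0.78 ± 0.17), RBL (REBELOTE) rose by 0.64 ± 0.13, IMP4 of the pre-rRNA processing complex by 0.55 ± 0.15, and PCN (POPCORN), another WD-repeat protein, by 0.53 ± 0.14. PGY1, a protein of the large ribosomal subunit, had 1233, 983.2 and 926.9 against 722.8, 576.5 and 750.6 (0.60 ± 0.16). The planned list of cytosolic ribosomal proteins matched no probe set by name, so that family was not examined as a set. PGY1 does not stand for it, and other members may be among the loci given here without a role. DECOY rose by 0.66 ± 0.16 and AT5G41190, listed as NOB1, a nuclease of small subunit maturation, by 0.54. Of the 19 tested genes in a list of ribosome assembly and RNA polymerase genes, 11 were higher and none lower, with a median of 0.54, beside 4.7% higher over all probe sets. That list was drawn up after the rises of its members were seen, so its count describes these genes and cannot be set against other lists. Without replicate 1 these were 7 and 0, with a median of 0.50. The 8 others, polymerase subunits and the exosome genes RRP41 and RRP41L, lay between -0.32 (NRPB7) and 0.50 (NRPC2). At stage 1.05 no gene of the list passed in limma, and its median was -0.001. NRPA1, NRPA2, NRPB12 and YAO passed with each stage 1.14 array left out in turn. RBL lost its call without Col-0 replicate 1, PRH75 without Col-0 replicates 2 or 3, and DECOY without SPH1 RNAi replicate 1 or any Col-0 array. PCN lost it without 5 of the 6 arrays of stage 1.14 (all but SPH1 RNAi replicate 2), AT5G41190 without 5 as well (all but replicate 1), and IMP4 and PGY1 without any one of the 6.

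**Figure D3:**
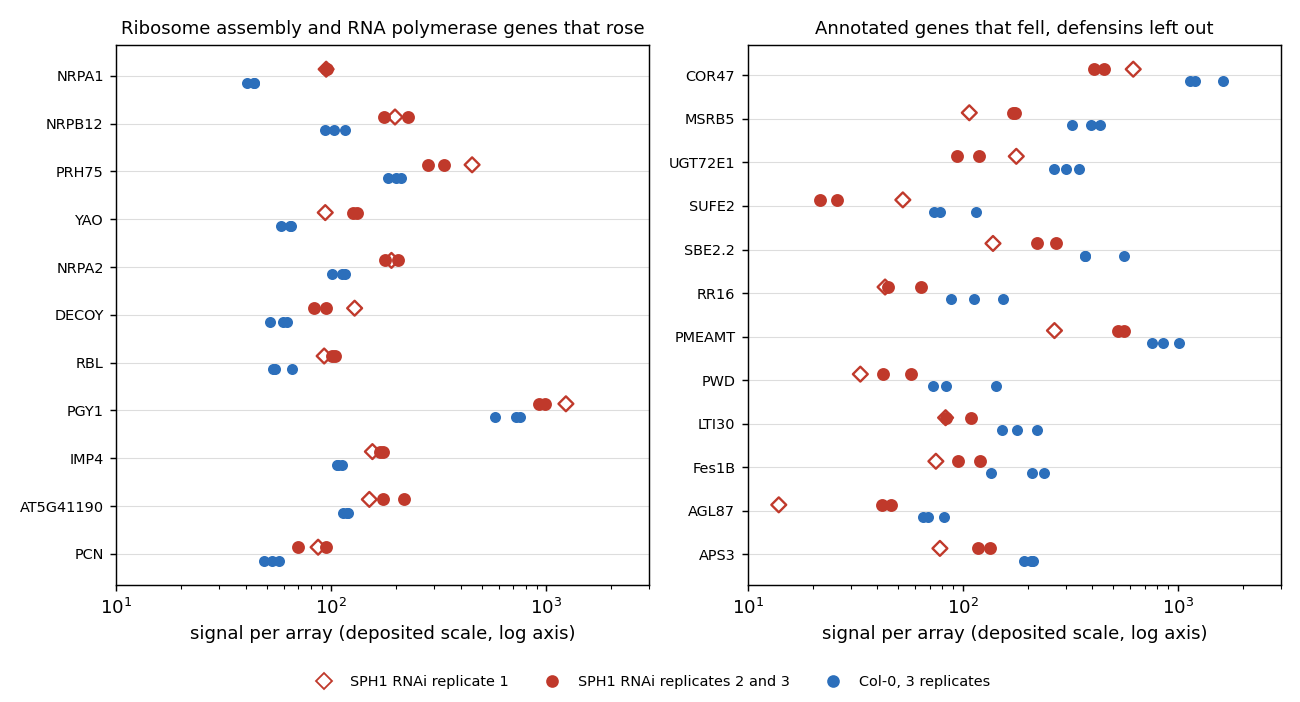
Signal on each array at stage 1.14 (log axis, deposited scale) for the 11 ribosome assembly and RNA polymerase genes that rose (left) and the 12 annotated genes with the largest falls, defensins left out (right), coloured as in the plot of leading genes. NRPA1 sits at 94.3 to 95.4 in SPH1 RNAi and 40.6 to 43.7 in Col-0. The groups do not overlap in any gene shown, which follows nearly from the choice of genes that passed. The same holds for 893 of the 896 probe sets that passed and for 28.2% of all tested.

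Genes of DNA and chromatin had rises that did not pass without replicate 1. TOPII, the topoisomerase that untangles DNA in dividing cells, had 67.1, 31.5 and 56.5 against 12.2, 3.1 and 5.3 (1.55 ± 0.39, adjusted p = 0.0354). The chromosome-binding protein 3xHMG-box2 had 102.4, 46.2 and 106.5 against 23.7, 20.1 and 21.8 (1.35 ± 0.30, adjusted p = 0.0201). PRL, the replication helicase subunit MCM7, rose by 0.82 ± 0.19 and the histone HTB1 by 0.88 ± 0.23. None of these 4 passed without replicate 1 (log2 changes of 1.38, 1.21, 0.78 and 0.72), nor without SPH1 RNAi replicate 3, Col-0 replicate 2 or Col-0 replicate 3. TOPII, 3xHMG-box2 and HTB1 did not pass without Col-0 replicate 1 either. In the list of cell division and DNA replication 1 of 6 tested genes passed (16.7%, beside 6.76% of all probe sets), with a median of 0.42. AUR1 and AUR2, kinases of mitosis, stood at 0.62 and 0.68, short of the threshold (adjusted p = 0.07 and 0.064). Among the histones 1 of 5 passed (20%), with a median of 0.26, and no gene of either list passed without replicate 1.

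Single wall enzymes passed in each direction. GH9B13, a glycosyl hydrolase of the cellulase family, had 287.9, 87.5 and 87.4 against 24.8, 12.4 and 35.1 (1.93 ± 0.40, adjusted p = 0.017, 1.41 without replicate 1), and lost its call without Col-0 replicate 2. Its relative GH9B8 had 58.8, 45.6 and 40.1 against 104.8, 85 and 85.5 (-0.75 ± 0.14, adjusted p = 0.0115), and passed with each stage 1.14 array left out in turn. These were the 2 that passed among 16 tested expansins, XTHs and GH9 enzymes (12.5%, beside 6.76% of all probe sets), whose median was 0.09. XTH16, an enzyme that cuts and rejoins xyloglucan, stood at 1.06 (adjusted p = 0.11), the expansin EXPA8 at -0.79 and EXPA4 at 0.66, none of which passed. Of 9 tested genes in the list of cellulose and xylan synthesis and of 3 in the pectin list none passed in limma, with medians of -0.16 and -0.12. The pectin list was matched by the names in the gene table. It does not hold AT5G62360 of the pectin methylesterase inhibitor family, which passed.

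Both dehydrins that could be matched by symbol and tested were lower in SPH1 RNAi. COR47, a dehydrin that accumulates in cold and drying tissue, had 619.5, 405.7 and 452.9 in SPH1 RNAi against 1205, 1615 and 1140 in Col-0 (-1.40 ± 0.18, adjusted p = 0.0024, -1.57 without replicate 1), and passed with each stage 1.14 array left out in turn. LTI30, another dehydrin, had 83, 83.6 and 108.6 against 178.5, 222 and 151.2 (-0.89 ± 0.18, adjusted p = 0.0168), and lost its call without Col-0 replicate 2. COR15A had 28.2, 195.2 and 226.6 against 227.5, 1175 and 327.7, and COR15B had 215.6, 488.8 and 515.3 against 608, 1152 and 640.2. The arrays of both COR15 genes spread more than those of the dehydrins, with SPH1 RNAi replicate 1 lowest and Col-0 replicate 2 highest, and neither passed (-1.82 and -0.98, adjusted p = 0.11 and 0.069). Of the 4 tested genes of the cold, drought and ABA list 2 were lower (50%, beside 2.06% over all probe sets), with a median of -1.19, or -0.93 without replicate 1. The list was matched by the symbols and synonyms in the gene table, which gave 5 genes with a probe set. It does not stand for all cold and drought genes on the array.

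Single starch and sugar genes passed. AMY1, an alpha-amylase, rose from 107.3, 124.1 and 86.5 to 238.1, 213.3 and 266.5 (1.07 ± 0.22, adjusted p = 0.0174, and 1.07 without replicate 1), and lost its call without SPH1 RNAi replicate 3 or Col-0 replicate 3. SBE2.2, a starch branching enzyme, fell from 369.9, 559.1 and 370.9 to 137.9, 220.7 and 270.6 (-1.01 ± 0.22, adjusted p = 0.0213), and lost its call without Col-0 replicate 2. AT4G24450, listed under the symbol PWD with the synonyms GWD3 and ATGWD2 and so a glucan water dikinase, fell by 0.91 on the log2 scale (± 0.21 SE, adjusted p = 0.0262), and did not pass without SPH1 RNAi replicate 1 or Col-0 replicates 2 or 3. TMT1, a vacuolar sugar transporter, was at -0.71 ± 0.18 (adjusted p = 0.032) and did not pass without SPH1 RNAi replicates 1 or 3 or Col-0 replicates 1 or 3. In the list of starch, sucrose and sugar transport, which does not hold SBE2.2 or TMT1, AMY1 was the 1 of 11 tested genes that was higher and AT4G24450 the 1 that was lower, with a median of -0.32. Over all probe sets 4.7% were higher and 2.06% lower.

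MSRB9 and MSRB5 are methionine sulfoxide reductases, which repair oxidised methionine in proteins, and they moved in opposite directions. MSRB9 had 261.5, 242.1 and 273.7 against 91.5, 117.5 and 68.1 (1.37 ± 0.21, adjusted p = 0.00456), and MSRB5 had 107, 175.5 and 171.5 against 395.6, 433.2 and 321.6 (-1.27 ± 0.24, adjusted p = 0.0105). Both passed with each stage 1.14 array left out in turn. They were the 2 that passed of 26 tested redox enzymes, or 7.69%, close to the 6.76% of all probe sets. Negative changes were found in 19 of the 26, beside 5963 of 13263 over all probe sets, and the list median was -0.28. MSRB3 and MSRB6 stood at -0.25 and -0.72 and did not pass.

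Nuclear photosynthesis genes had mostly negative differences that were smaller without replicate 1. Among 12 tested photosystem and antenna genes 11 had negative changes, beside 5963 of 13263 over all probe sets, with a list median of -0.34. In this list 1 gene passed (8.33%, beside 6.76% of all probe sets). That was LHCB4.2, with 1754, 1863 and 1759 against 2577, 2708 and 2963 (-0.61 ± 0.15, adjusted p = 0.0324). It did not pass without SPH1 RNAi replicates 1 or 3 or any one Col-0 array. LHCB4.3 had 263.4 on SPH1 RNAi replicate 1 and 923.8 and 874.4 on replicates 2 and 3, against 1112, 1471 and 1321 in Col-0, and did not pass (-1.09, adjusted p = 0.11). The Calvin cycle genes PRK and SBPASE had changes of -0.51 and -0.52 with all arrays and -0.08 and -0.002 without replicate 1, and none of 4 tested genes of that list passed. Without replicate 1 the photosystem list had a median of -0.21, and 1 gene passed, AT4G38100 of the thylakoid curvature proteins. This gene was higher, with 158.8 and 215.2 on replicates 2 and 3 against 99.2, 82.2 and 88.9, and 88.4 on replicate 1.

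Hormone and lipid genes gave a few single calls. RR16, a response regulator that damps cytokinin signalling, had 43.4, 44.7 and 63.7 against 153.3, 87.8 and 112.6 (-0.99 ± 0.21, adjusted p = 0.0173), and did not pass without Col-0 replicates 1 or 3. Its relative ARR15 stood at 0.25. PMEAMT, a methyltransferase on the route to phosphocholine, had 266.4, 564.1 and 525.7 against 854.8, 1009 and 759.7 (-0.99 ± 0.24, adjusted p = 0.03), and lost its call without any one Col-0 array. UGT72E1, a glucosyltransferase of phenylpropanoids, fell by 1.17 on the log2 scale (± 0.25 SE), and SUFE2, an activator of iron-sulphur cluster assembly, by 1.11 (± 0.25). SUFE2 was at 52.5, 21.7 and 25.9 against 114.5, 73.3 and 78.2. UGT72E1 did not pass without SPH1 RNAi replicate 3 or Col-0 replicates 1 or 3, and SUFE2 did not without any of these or SPH1 RNAi replicate 2. AT4G13840, listed as CER26 (ECERIFERUM 26), a gene of leaf wax synthesis, had 93.5, 193.4 and 171.2 against 250.9, 346.4 and 291.8 (-0.93 ± 0.24, adjusted p = 0.0359), and lost its call without 5 of the 6 arrays of stage 1.14 (all but SPH1 RNAi replicate 2). It was the 1 that passed of 2 tested wax genes, beside 6.76% of all probe sets. ALN, the allantoinase of purine breakdown, was at 44.1, 40.4 and 39.7 against 86.1, 75.4 and 82 (-0.76 ± 0.12, adjusted p = 0.00456), and passed with each stage 1.14 array left out in turn.

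Among other annotated rises, ARPN (plantacyanin), a small copper protein, had 194.7, 77.5 and 87 against 33.7, 22.9 and 26.5 (1.54 ± 0.25, adjusted p = 0.00595, 1.17 without replicate 1). VPS2.2, of the complex that sorts membrane proteins in endosomes, had 67, 42.5 and 47.3 against 26.8, 3.8 and 7.2 (1.32 ± 0.25). PPR596, a pentatricopeptide repeat protein, a class that acts on organelle RNA, had 114.6, 99.9 and 144.6 against 50.5, 43.8 and 54.7 (1.04 ± 0.16, adjusted p = 0.00409). LCR (LEAF CURLING RESPONSIVENESS), an F-box protein of leaf shape, had 128.1, 146 and 140.5 against 76.7, 76.2 and 91.3 (0.66 ± 0.12, adjusted p = 0.00798). These 4 genes passed with each stage 1.14 array left out in turn. All their SPH1 RNAi arrays lay above all Col-0 arrays, as in 17.9% of all probe sets tested.

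**Figure D4:**
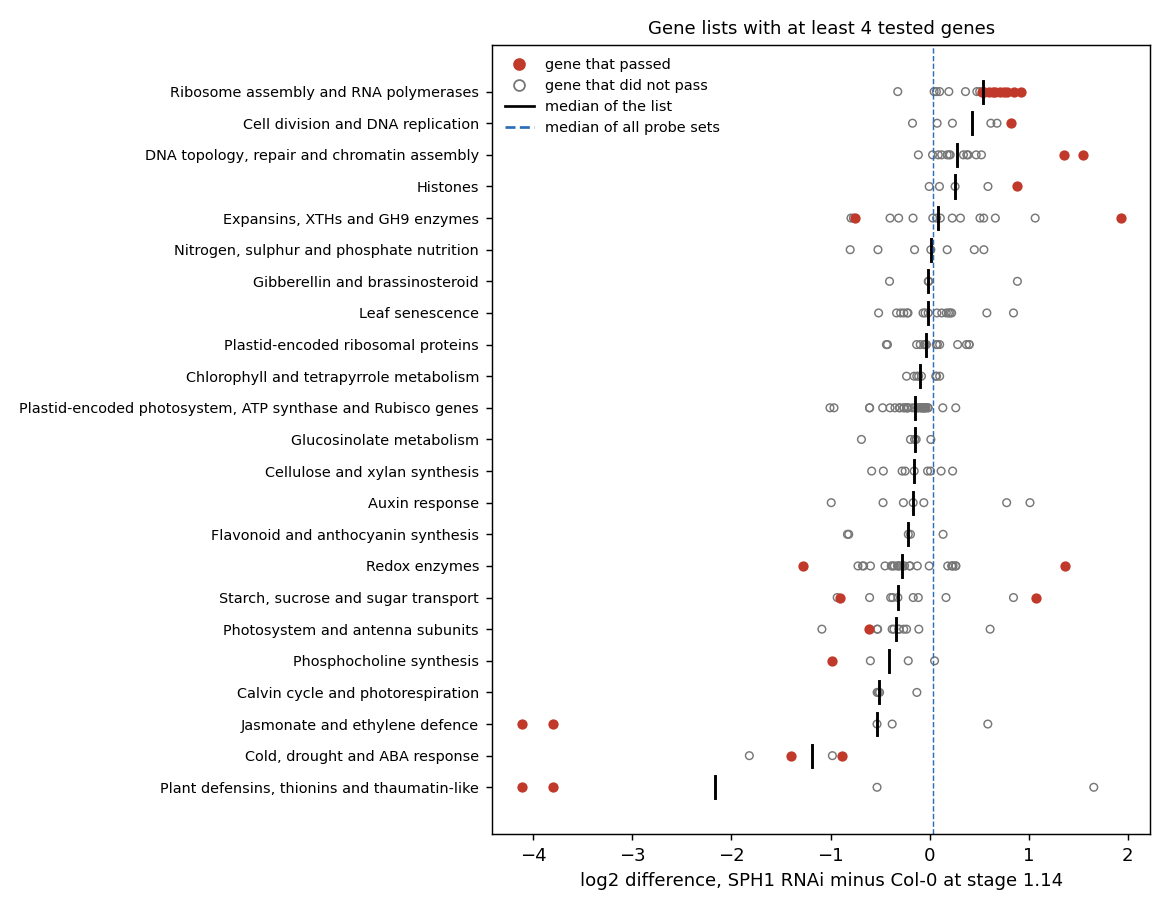
Log2 difference between SPH1 RNAi and Col-0 at stage 1.14 for each tested gene of the lists with at least 4 tested genes (marker lists left out), filled where the gene passed, with the median of each list and of all probe sets (dashed). The ribosome assembly list (median 0.54, 11 filled points) was drawn up after the rises were seen, which fixes its place, and the medians of the defensin list (-2.17) and the cold list (-1.19) lie furthest left of the lists shown.

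Over all probe sets tested the median log2 change was 0.04, which is the value to set beside the list medians. The shares to set beside the list counts are 6.76% passed, 4.7% higher and 2.06% lower. The plot of gene lists shows 2 filled points at the far left in both the defensin list and the jasmonate and ethylene list, which are the same PDF1.2 genes. In the jasmonate and ethylene list they were the 2 that passed of 5, and the others were THI2.2 at -0.53, EIN3 at -0.38 and PDF1.4 at 0.59. No gene passed among 2 of salicylate defence, 8 of chlorophyll metabolism, 5 of flavonoid synthesis, 7 of auxin response, 17 of leaf senescence and 5 of glucosinolate metabolism. The same held for 7 genes of nitrogen, sulphur and phosphate nutrition, 4 of gibberellin and brassinosteroid, 3 of heat shock and 2 of the circadian clock. In the list of DNA topology, repair and chromatin assembly, also drawn up after the values were seen, 2 of 14 were higher (TOPII and 3xHMG-box2), with a median of 0.27. In flavonoid synthesis the arrays of Col-0 differed more than the genotypes, with a summed signal of 855.7 on Col-0 replicate 2 and of 211.6 and 223.5 on replicates 1 and 3, against 172.1 to 324 in SPH1 RNAi.

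Markers of root tissue had a higher summed signal in SPH1 RNAi, most of all on replicate 1, although 1 of 5 tested passed (20%, beside 6.76% of all probe sets). PYK10, a beta-glucosidase abundant in roots, had 355.2, 39.4 and 61.3 against 21.4, 16.3 and 14.2 (1.82, adjusted p = 0.059), and the lectin JAL33, which binds it, had 68.7, 32.8 and 31.8 against 9.4, 6.4 and 22.6 (1.06 ± 0.26, adjusted p = 0.034). JAL33 did not pass without SPH1 RNAi replicates 1 or 3 or Col-0 replicates 1 or 2. Over the 7 root markers with a probe set, 5 of them tested, the summed signal was 243.3 to 626.6 in SPH1 RNAi and 146.9 to 188.6 in Col-0. The root hair expansins EXPA7 and EXPA18 were between 12.6 and 30.8 on all 6 arrays, and no marker was at 0. Summed markers of flowers (957.6 to 1095 against 993.9 to 1063) overlapped between the genotypes, as did those of the meristem and leaf primordium (361.4 to 770.2 against 318.6 to 488.2), the last with replicate 1 highest. The sums also overlapped for vasculature (353.7 to 1256 against 600.3 to 937.2), guard cells (40.7 to 66.9 against 47.4 to 62.2), the trichome gene TRY (16.7 to 77 against 3.1 to 50.8) and the single pollen marker (at most 2 on every array). The 2 seed markers, both below the filter, summed to 40.3 to 53.2 in SPH1 RNAi and 21.4 to 31.5 in Col-0. The part of these markers in the other differences was not tested.

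The same contrast in young rosettes, at stage 1.05, called 707 probe sets (5.33%), with 606 higher (4.57%) and 101 lower (0.762%). Of the 896 probe sets of the older rosettes, 77 passed at both stages, 67 of them higher at both, 6 lower at both and 4 in opposite directions. AT1G43910 was among those higher at both, with 419.8, 269.6 and 262.7 in SPH1 RNAi at stage 1.05 against 63.7, 61.7 and 56.4 in Col-0. MSRB9 (1.82), AMY1 (1.44), the calmodulin-like CML41 (1.71) and AT3G57950 (1.70) were higher at stage 1.05 as well, while GH9B8 (-0.998) and the chlorophyll b reductase NOL (-0.73) were lower at both. At stage 1.14 CML41 lost its call without SPH1 RNAi replicates 2 or 3 or Col-0 replicates 2 or 3, and NOL without SPH1 RNAi replicate 3 or any Col-0 array.

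The test of the interaction of genotype and stage called 446 probe sets (3.36%), and 216 of these also passed at stage 1.14, 168 higher and 48 lower. AT4G29030 was at 572.7 to 808.7 on all 6 arrays of stage 1.05, whatever the genotype, so the difference arose at stage 1.14, where Col-0 was at 16.5 to 29.5 and SPH1 RNAi at 206.8 to 587.2. The interaction was 3.41 (adjusted p = 0.00314). AT1G62500 was at 147.9 to 318.2 in SPH1 RNAi and 162.4 to 424.3 in Col-0 at stage 1.05 (interaction 3.49, adjusted p = 0.0351), and AT2G28790 at 379.6 to 469.5 and 364.7 to 618.7 (2.72, adjusted p = 0.0339). In these genes Col-0 at stage 1.14 was the lowest of the 4 groups. The range of SPH1 RNAi at stage 1.14 overlapped with its range at stage 1.05 only through replicate 1. Replicates 2 and 3 lay below all SPH1 RNAi arrays of stage 1.05.

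AT4G29030, AT3G16800 and 4 loci given without a role led the named genes of the interaction. AT1G10640 was at 63.7, 52 and 60.6 in SPH1 RNAi and 12.3, 11.9 and 16 in Col-0 at stage 1.14, and at 80.5 to 94.9 and 95.9 to 139.2 at stage 1.05 (interaction 1.68, adjusted p = 0.00314). AT3G13230, AT1G07070 and AT3G16780 had the same order, higher in SPH1 RNAi by 1.03, 0.67 and 1.13 at stage 1.14 and at -0.35, -0.48 and -0.33 at stage 1.05. Only AT1G07070 of these 4 also passed at stage 1.05, in the opposite direction. COR47 was low in both genotypes at stage 1.05, with 143.8 to 171.6 in SPH1 RNAi and 125.7 to 137 in Col-0, and its fall at stage 1.14 passed the interaction (-1.67, adjusted p = 0.00703). LTI30 did as well (-1.17, adjusted p = 0.0339), and so did AT5G62360 (-1.52, adjusted p = 0.0375), which was at 9.1 to 22.4 in both genotypes at stage 1.05. PDF1.2 and PDF1.2b did not pass the interaction (adjusted p = 0.36 and 0.51). At stage 1.05 their changes were -1.71 and -2.38, and neither passed there (limma adjusted p = 0.28 and 0.17).

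**Figure D5:**
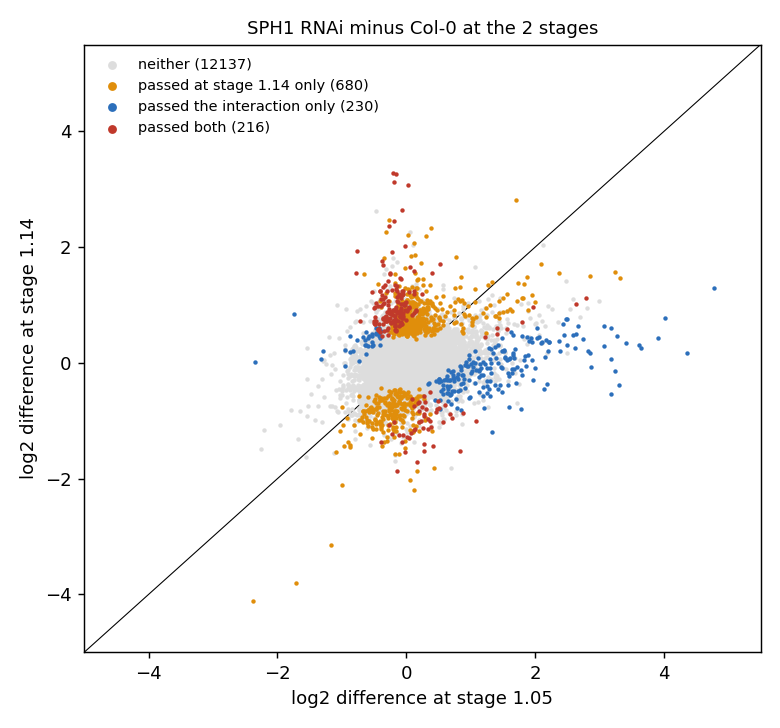
Log2 difference between SPH1 RNAi and Col-0 at stage 1.05 (horizontal axis) and at stage 1.14 (vertical axis), 1 point per probe set, coloured by whether it passed at stage 1.14, the interaction or both, with the line of equal values. Of the 216 probe sets that passed both, 194 lie within 0.5 of 0 on the horizontal axis, and all lie between -0.775 and 2.79. Passing both favours a small difference at stage 1.05, so the 194 follows in part from the selection. The share of all probe sets in that range was not counted. On the vertical axis 168 of the 216 lie above 0 and 48 below 0.

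The count of the interaction moved by over 1.5 times with several arrays of either stage left out. It was 230, 211 and 171 without SPH1 RNAi replicate 3, Col-0 replicate 1 and Col-0 replicate 3 of stage 1.14. Without SPH1 RNAi replicates 1, 2 and 3 of stage 1.05 it was 705, 131 and 169, and without Col-0 replicates 2 and 3 of that stage 119 and 159.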

How the data were processed

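Transcripts of rosette leaves were measured on Affymetrix ATH1 arrays, 1 linear intensity for each of 22810 probe sets, as deposited by the authors. Which software summarised the probes is not given in the sources used. The values were scaled per array by the authors (mean 100.01 on each after trimming 2% at each end), with no log transform. After leaving out 64 control probe sets, those with a mean signal of at least 32 over the 12 arrays (13263) were tested on log2(signal + 16) in limma 3.58.1 (R 4.3.3; lmFit, eBayes with an intensity trend) in 1 model of 4 groups with 3 arrays each and 8 residual degrees of freedom. The filter uses the mean of all groups, so a gene high in 1 group alone could enter through it. Adjusted p is Benjamini-Hochberg. The scripts were tested on simulated data. The number of arrays limits the precision.

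Probe sets were named through a table that gives 1 gene for 13513, several for 503 and none for 8730, with symbols from the TAIR10.1 gene list. No genome build is named for the probes, so no coordinates are printed. Among tested probe sets 7095 had 1 gene, 267 several and 5901 none.

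The members of the comparison and the gene lists were chosen with earlier results of these data known. Named are, per direction, 12 genes that passed with and without SPH1 RNAi replicate 1, without overlap of the groups, ranked by the smaller change, then the 6 whose change fell and the 6 whose change grew most without that array, 6 of the interaction and up to 6 tested genes of each list. The genes with a symbol were grouped by role after their values were seen. Lists were matched by symbol or synonym, and 7 false matches were left out by locus. For 5 of 31 lists no probe set was listed, since the gene table holds few descriptions, and 4 lists were added after the values were seen. A list is described by counts and medians, without a test. Alternatives were another offset (64 or 1), quantile normalization, another filter, a replicate block, array weights, no trend, a model of the 6 arrays of stage 1.14 and leaving out each array. Motifs in promoters and protein sequences, planned as a description, were not analysed here.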

Additional observations from a re-analysis of the deposited data

Results flagged for a closer look

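Genes and probe sets named by rule, and annotated genes that passed at stage 1.14, are given here where the difference between SPH1 RNAi and Col-0 at stage 1.14 differed from that at stage 1.05 in limma's interaction test (adjusted p under 0.05). Each value is the difference of the 2 log2 differences. In all, 446 probe sets passed that test. The positive values were 3.49 in AT1G62500, 3.41 in AT4G29030, 2.72 in AT2G28790, 2.69 in GH9B13, 2.13 in AT5G20740 and 2.04 in AT5G45670. The unnamed probe sets 258675_at and 245688_at had 3.32 and 3.05. Values between 1 and 2 were found in ARPN (1.79), AT1G10640 (1.68), VPS2.2 (1.46), AT3G16780 (1.46), AT3G13230 (1.38), AT4G17390 (1.16), AT1G07070 (1.15), PRH75 (1.14) and PPR596 (1.06). Smaller ones were 0.934 in PCN, 0.92 in YAO, 0.772 in NRPA1 and 0.723 in LCR. Among the negative values, AT1G30250 had -1.81, AT1G78460 -1.71, COR47 -1.67, AT5G62360 -1.52, SUFE2 -1.50, AT3G16800 -1.31 and LTI30 -1.17. The glutamate receptor gene GLR1.4 had -0.91 and the transcription factor gene WRKY47 -0.773, since their log2 differences of 0.50 and 0.45 at stage 1.14 stood beside 1.40 and 1.22 at stage 1.05. All groups had 3 arrays, too few to test a single array as an outlier.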

How the results depend on the processing

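The 896 calls became 862 and 912 with offsets of 64 and 1, 889 after quantile normalization, 907 without the trend, 665 without the filter and 770 with a minimum of 64. Array quality weights gave 3345, of which 59.1% were higher against 69.5% in the fit as reported. A model of the 6 arrays of stage 1.14 alone, which pools the spread of fewer arrays, gave 154. With each array left out the count ranged from 376 to 1102. The interaction's 446 calls became 236 without the filter and 2137 with array weights, and 119 to 705 with each array left out. The causes of these shifts were not tested.

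With the replicate number as a block there were 998 calls and 523 for the interaction. The numbers are not known to pair the arrays: the deviations of same-numbered arrays correlated at 0.49, 0.36 and -0.25, and SPH1 RNAi replicate 3 correlated best with Col-0 replicate 2 (0.38).

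The 24 leading genes kept their direction in every alternative. All 24 passed with both offsets, quantile normalization, the block, array weights, no trend and without SPH1 RNAi replicate 1, and 15 of 24 in the model of 6 arrays. Without another array of stage 1.14, 18 to 23 passed. Over single genes and list members, 352 results of alternatives no longer passed, 83 newly passed and 6233 kept their side of the threshold, with none reversed. Low signals limit many of the calls. Of the 623 probe sets that rose, 133 had a Col-0 mean at stage 1.14 under 32, the minimum of the filter. Among the leading genes these were AT4G29030, AT3G57950, AT1G62500, AT5G45670, AT3G21770, AT4G22490, AT5G20740 and AT1G15010. AT3G57950 met the minimum only through its SPH1 RNAi arrays, with Col-0 means of 1.77 and 1.57 at stages 1.14 and 1.05. Of the 273 that fell, 14 had an SPH1 RNAi mean under 32, AT3G23550 among them.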

Other observations

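Plastid-encoded genes showed no call in either direction. Of 33 tested genes for photosystem, ATP synthase and Rubisco subunits none passed in limma, and the median was -0.15. The largest differences were in psaA, with 991.6, 1890 and 972.9 in SPH1 RNAi against 2126, 2580 and 2751 in Col-0 (-1.01, adjusted p = 0.26), and psbD, with 612.2, 997.5 and 757 against 1502, 1663 and 1422 (-0.97, adjusted p = 0.24). In these core genes of the photosystems the groups did not overlap, as in 28.2% of all probe sets tested. None of 15 tested plastid ribosomal protein genes passed, with a median of -0.03. Labelling used an oligo(dT) primer, per the labels' protocol.

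In the low-oxygen list PDC2, a pyruvate decarboxylase of fermentation, stood at -1.09 (adjusted p = 0.088), and -1.33 without SPH1 RNAi replicate 1. In the auxin list IAA29 stood at -0.99 and GH3.17 at 1.01, neither of which passed (adjusted p = 0.19 and 0.082).

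Of the 896 probe sets, 402 have no gene in the table used here (44.9%, against 44.5% of those tested). The leading ones that rose were 258675_at, at 793.7, 236.9 and 342.4 in SPH1 RNAi against 35.1, 26.7 and 35.1 in Col-0, and 245688_at, at 1370 (replicate 1), 354.7 and 417.4 against 97.1, 24.4 and 65.3. The leading ones that fell were 254232_at, at 94.1, 149.6 and 156.5 against 508.2, 793.4 and 590.2, and 245627_at, at 13, 63.5 and 57.9 against 130.4, 538.4 and 187.7.

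By chromosome, higher probe sets with 1 gene made up 6.1% of those tested on chromosome 4, 5.73% on chromosome 3, 4.77% on chromosome 5, 4.06% on chromosome 1 and 3.92% on chromosome 2. Lower ones made up 2.13%, 1.75%, 1.47%, 2.2% and 1.18% in the same order. Over all probe sets tested 4.7% were higher and 2.06% lower. Among the 60 genes on each side of SPH1 in gene order, 35 were tested, 2 were higher and 1 lower. These counts are to be set beside the same shares over all probe sets. The median was -0.002, beside 0.04 over all. AT4G16140 and AT4G16720, which were higher, each lost the call without 5 of the 6 arrays of stage 1.14. AT4G16770, which was lower, passed with each of these arrays left out in turn.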
